A study of Caenorhabditis elegans with 12 samples.

Results

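The 8 mitochondrial stress response genes described here were hsp-6, hsp-60, dnj-10, clpp-1, lonp-1, atfs-1, dve-1 and ubl-5, among 17118 genes that had a probe set carrying 1 gene symbol. They were chosen by name, as members of the mitochondrial unfolded protein response, and all 8 were found, on 14 probe sets. Each gene was represented by its brightest probe set, by the mean of all arrays. Transcripts of whole Caenorhabditis elegans larvae at the L4 stage had been measured on 12 one-colour Affymetrix arrays, in 4 groups of 3. The groups were wild type without Cd, wild type raised with 30 µM Cd, MT KO without Cd, and MT KO raised with 30 µM Cd. MT KO carries the allele mtl-1,mtl-2(zs1), a double knockout of the metallothionein genes, and the strain label of every group is N2 (Bristol). All animals came from populations kept at 20 °C on NGM plates with Escherichia coli OP50. The study asks how metallothioneins, small metal-binding proteins, shape the response to Cd, a toxic metal. The labels number the arrays within each group without stating whether they came from separate cultures, so the p-values measure only how far these arrays scatter, and that scatter may be technical.

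The mitochondrial unfolded protein response is a signal from stressed mitochondria to the nucleus. In C. elegans the bZIP factor ATFS-1 is imported into healthy mitochondria and degraded there by the Lon protease. When import fails it enters the nucleus and, with the homeodomain protein DVE-1 and the ubiquitin-like protein UBL-5, raises transcription of mitochondrial chaperones and proteases. The chaperone genes hsp-6 and hsp-60 are the standard reporters of this pathway in the worm.

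In wild type, Cd lowered ubl-5 and lonp-1 by 1.45-fold and 1.44-fold and raised atfs-1 by 1.51-fold. In MT KO, Cd lowered ubl-5 and lonp-1 by 1.25-fold and 1.31-fold, and atfs-1 did not pass the test. Of these 5 calls, that of ubl-5 in wild type held whichever array was left out, and each of the others was lost in some such fits. All 5 were lost when the fit was adjusted for a difference between the ends of control transcripts, a sign of RNA quality that moved with Cd. Neither reporter chaperone passed the test on its brighter probe set in either strain in the main fit of all 12 arrays. With that adjustment, or without the first array of wild type without Cd, hsp-60 passed as lower in both strains. These fits are not separate support, since within groups the end difference spread mainly in wild type without Cd, and most in that array. In MT KO, hsp-60 also passed as lower with a filter on low values and with array weights. It did so too in a fit of only the MT KO groups, which hold no wild-type array. The second probe set of hsp-6 passed as lower in wild type, with an adjusted p of 0.0449 in limma. That call was not followed through the fits that left out an array or used the adjustment. Around these genes, 29 of 59 mitochondrial ribosomal protein genes fell in wild type and 24 of 59 in MT KO. No difference between the strains passed the test for any of the 8 genes, with or without Cd.

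The values below are log2 GCRMA values, given per array in replicate order, and a difference is on the log2 scale. The median of all values was 4.03, and every value of the 8 genes on these probe sets lay above it. The tests are two-sided moderated tests of limma over 22548 probe sets, with Benjamini-Hochberg adjustment over all of them, and an adjusted p under 0.05 counted as passing. Over all probe sets, 11.9% passed for Cd in wild type, 6.44% as higher and 5.50% as lower. For Cd in MT KO 22.5% passed, 11.5% as higher and 11% as lower.

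Several properties of the arrays moved with the groups. The deleted genes followed the strain labels; for example, mtl-1 read 9.85 ± 0.38 (SD, n = 3) in wild type with Cd and 4.02 ± 0.22 in MT KO with Cd. Arrays of one group correlated at r between 0.9911 and 0.9969. The control probe sets of GAPDH and actin, read at their 3′ and 5′ ends, give a sign of RNA quality. Their 3′ signal less their 5′ signal, called the end difference here, was 2.81, 1.84 and 1.28 in wild type without Cd and 1.22, 1.14 and 1.03 with Cd. For MT KO the values were 1.48, 1.27 and 1.39 without Cd and 0.94, 1.07 and 0.74 with Cd, so that in each strain the Cd arrays lay below the others. The first array of wild type without Cd had the highest end difference and the lowest array weight in limma, 0.29. Within groups the end difference spread most in wild type without Cd, so a fit adjusted for it leans mainly on those arrays, in both strains. The mean log2 value of 31 sperm markers ranged from 8.82 to 9.37 in wild type without Cd, from 8.49 to 8.70 in wild type with Cd, from 9.38 to 10.01 in MT KO without Cd, and from 6.78 to 7.16 in MT KO with Cd, where 30 of the 31 fell relative to MT KO without Cd. The 10 pharynx markers moved the other way, from between 6.66 and 6.89 to between 7.22 and 7.40 with Cd in wild type, where 7 of 10 rose, and from between 6.70 and 6.81 to between 7.93 and 7.97 in MT KO, where 9 of 10 rose. The 10 intestine markers, whose tissue is commonly used to read this stress response, ranged from 9.26 to 9.40 and from 9.04 to 9.11 in wild type without and with Cd, and from 9.50 to 9.55 and from 9.07 to 9.31 in MT KO; 3 rose and 3 fell with Cd in wild type, and 1 rose and 4 fell in MT KO. In wild type 6 of the 12 markers of oocytes and embryos were higher with Cd and 1 was lower, where the mean of the 12 ranged from 5.05 to 5.18 without Cd and from 5.45 to 5.56 with Cd, and in MT KO 1 was higher. Of 13 neuron markers, 3 rose in wild type and 7 in MT KO. Of 14 moulting genes, 1 rose in wild type, and 1 rose and 7 fell in MT KO. Of 12 germline markers, 1 rose in wild type and 3 fell in MT KO. The 10 body wall muscle markers showed 0 passing genes in limma in wild type, where 3 had an unadjusted p under 0.05, and 1 in MT KO. In whole animals, fewer cells of a type and less RNA per cell cannot be told apart, and the part of these shifts in the results on the 8 genes was not tested beyond the fits named beside them.

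**Figure D1:**
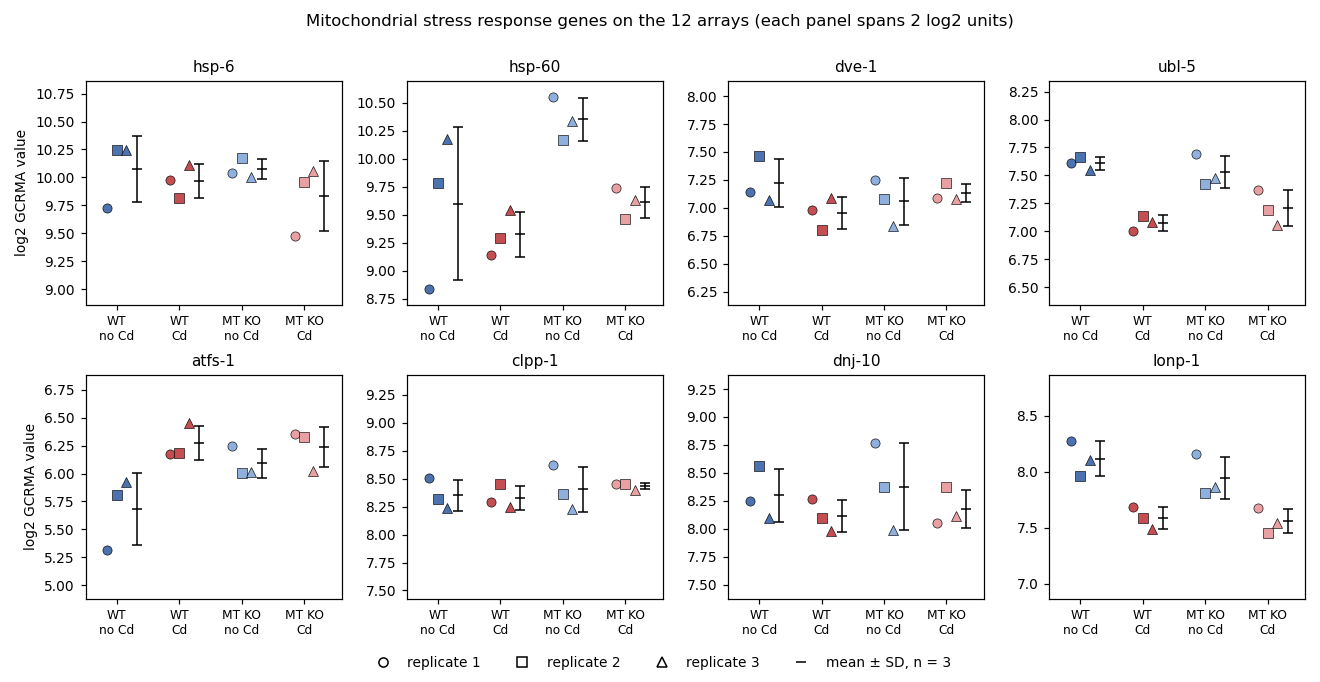
Log2 GCRMA value of each of the 8 genes on each array, by group, with the mean and SD of 3 arrays beside the points, and each panel spanning 2 log2 units. The points of ubl-5 and lonp-1 with Cd lie below those without Cd in both strains, and the first array of wild type without Cd is the lowest of its group for hsp-6, hsp-60 and atfs-1.

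The chaperones come first. The gene hsp-6 (C37H5.8, chromosome V) encodes the mitochondrial HSP70, which pulls proteins into the matrix and folds them there. Its values were 9.73, 10.25 and 10.24 in wild type without Cd and 9.98, 9.81 and 10.11 with Cd. In MT KO they were 10.04, 10.17 and 10.001 without Cd and 9.48, 9.96 and 10.06 with Cd. All 4 groups overlapped, and the lowest array belonged to MT KO with Cd. The difference with Cd was −0.11 in wild type, with a 95% interval from −0.50 to 0.29 and an adjusted p of 0.910 in limma. The MT KO difference was −0.24, with an interval from −0.64 to 0.16 and an adjusted p of 0.404 in limma. Neither interval reached above 0.29 on this probe set.

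A second probe set of hsp-6 gave a different reading in wild type. It read 6.45, 6.53 and 6.87 without Cd and 6.08, 6.17 and 6.28 with Cd in wild type, and the groups did not overlap. On this probe set hsp-6 fell by 0.44 (SE 0.12) with Cd in wild type, with an adjusted p of 0.0449 in limma. That value is close to the threshold, and the call was not followed through the fits that left out an array or adjusted for the end difference. In MT KO the same probe set read 6.90, 6.56 and 6.63 without Cd and 6.64, 6.52 and 6.54 with Cd, a difference of −0.13 that did not pass (limma, adjusted p = 0.525). The difference between the strains in this Cd response was 0.31 and did not pass either (limma, adjusted p = 0.430). The 2 probe sets of hsp-6 therefore disagreed on whether wild type passed, while both differences were below 0.

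The gene hsp-60 (Y22D7AL.5, chromosome III) encodes the mitochondrial chaperonin, the folding chamber of the matrix. Its values in wild type were 8.84, 9.79 and 10.17 without Cd and 9.14, 9.29 and 9.54 with Cd. In MT KO they were 10.55, 10.17 and 10.34 without Cd and 9.74, 9.46 and 9.63 with Cd. The wild-type groups overlapped because the first array without Cd was the lowest of all 12, while in MT KO every Cd array lay below every array without Cd. The difference with Cd was −0.28 (SE 0.29) in wild type, with an interval from −0.92 to 0.37 and an adjusted p of 0.727 in limma. For MT KO this was −0.74 (SE 0.29), with an interval from −1.38 to −0.10 and an adjusted p of 0.0994 in limma.

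Neither hsp-60 difference passed in the main fit of all 12 arrays. This changed with single arrays left out, with the end difference of the control probe sets and, in MT KO, with other settings. Without the first array of wild type without Cd, the differences were −0.66 (limma, adjusted p = 0.0406) in wild type and −0.74 (limma, adjusted p = 0.00698) in MT KO, so hsp-60 then passed as lower in both strains. The MT KO difference also passed without the third array of wild type without Cd (limma, adjusted p = 0.0470). Without the same array the wild-type difference was 0.01. Adjusted for the end difference, the differences were −0.98 (limma, adjusted p = 0.0150) and −1.13 (limma, adjusted p = 0.00108). That adjustment leans on the same first array, so it does not add separate support to the fit without that array. In MT KO, hsp-60 also passed as lower with a filter on low values and with array weights. It did so too in a fit of only the MT KO groups, which hold no wild-type array.

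The second probe set of hsp-60 showed the same low array. Its values were 4.29, 6.23 and 6.82 without Cd and 5.68, 5.83 and 6.09 with Cd in wild type, and 7.64, 7.35 and 6.99 without Cd and 6.51, 6.24 and 6.11 with Cd in MT KO. In MT KO the Cd arrays again lay below the others, by a difference of −1.04 (SE 0.53) that did not pass (limma, adjusted p = 0.215). In wild type the difference was 0.09, and the SD over the arrays without Cd was 1.33. Both probe sets of hsp-60 have the manufacturer's _s_at suffix, which marks probes that may match several transcripts. The brightest probe sets of atfs-1, clpp-1 and lonp-1 and the second of dnj-10 have it too. The second probe sets of clpp-1 and lonp-1 have the plain _at suffix.

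**Figure D2:**
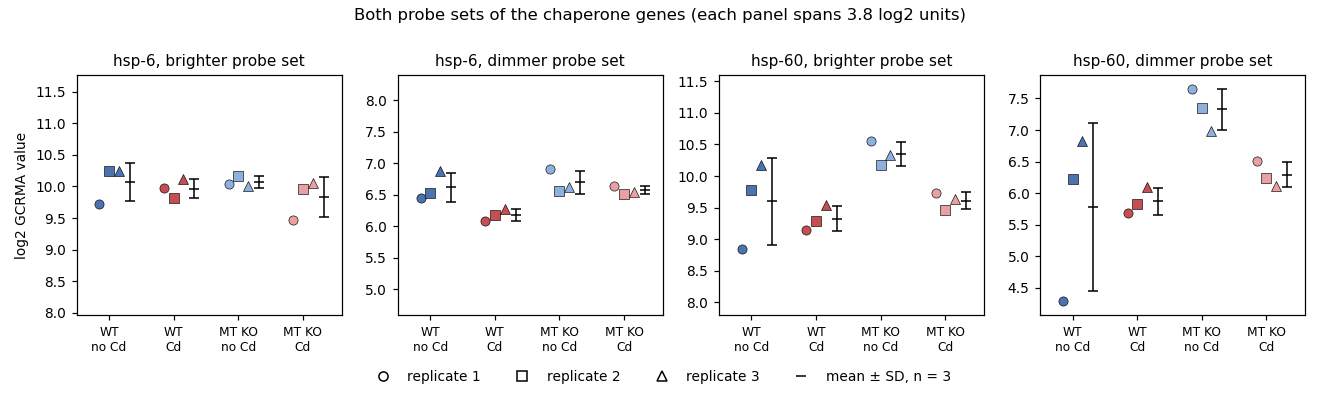
Log2 GCRMA value of both probe sets of hsp-6 and of hsp-60 on each array, with the mean and SD of 3 arrays, and each panel spanning 3.8 log2 units. The first array of the wild type without Cd is low on both hsp-60 probe sets, at 8.84 and 4.29, and in MT KO the Cd points of both lie below those without Cd.

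The gene dnj-10 (F22B7.5, chromosome III) encodes a DnaJ-domain protein, a class of co-chaperone that stimulates HSP70 proteins. Wild-type arrays read 8.25, 8.56 and 8.09 without Cd and 8.26, 8.10 and 7.98 with Cd, and MT KO arrays 8.77, 8.38 and 7.99 without and 8.05, 8.37 and 8.11 with Cd. All 4 groups overlapped. Cd differed from no Cd by −0.18 in wild type (interval from −0.62 to 0.25) and by −0.20 in MT KO (interval from −0.63 to 0.23), with adjusted p of 0.729 and 0.542 in limma. On its second probe set the differences were −0.22 and −0.28, and neither passed (limma, adjusted p = 0.382 and 0.165).

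Of the 2 protease genes, clpp-1 did not pass in any comparison and lonp-1 fell with Cd. The gene clpp-1 (ZK970.2, chromosome II) encodes the proteolytic subunit of the matrix ClpP protease, which is needed for the stress signal in worms. Its values were 8.51, 8.32 and 8.23 without Cd and 8.29, 8.45 and 8.24 with Cd in wild type, and 8.62, 8.36 and 8.23 without Cd and 8.45, 8.45 and 8.40 with Cd in MT KO. The 4 groups overlapped and the differences with Cd were −0.02 in wild type and 0.03 in MT KO. Their 95% intervals ran from −0.25 to 0.21 and from −0.20 to 0.26, among the narrower ones of the 8 genes. Its second probe set did not pass in any comparison.

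The gene lonp-1 (C34B2.6, chromosome I) encodes the Lon protease of the matrix, which in worms degrades imported ATFS-1. In wild type it read 8.27, 7.96 and 8.11 without Cd and 7.69, 7.59 and 7.49 with Cd. In MT KO it read 8.16, 7.81 and 7.86 without Cd and 7.67, 7.46 and 7.54 with Cd. Every Cd array lay below every array without Cd of the same strain. With Cd, lonp-1 fell by 0.53 (SE 0.11) in wild type, with an adjusted p of 0.0130 in limma. Likewise in MT KO lonp-1 fell by 0.39 (SE 0.11), with an adjusted p of 0.0304 in limma.

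The lonp-1 calls depended on the probe set and on some arrays. Its second probe set differed by −0.28 (SE 0.21) in wild type and by −0.10 in MT KO and passed in neither (limma, adjusted p = 0.531 and 0.803), and the mean of both probe sets passed in neither (limma, adjusted p = 0.0779 and 0.230). The wild-type call was lost without the third array of wild type with Cd (limma, adjusted p = 0.0517), and the MT KO call without the first array of MT KO without Cd, the second with Cd or the third with Cd (limma, adjusted p = 0.0884, 0.102 and 0.0763). Adjusted for the end difference, the differences were −0.40 and −0.32, and neither passed (limma, adjusted p = 0.159 and 0.0945).

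Among the regulators, ubl-5 and atfs-1 moved in opposite directions in wild type. The gene ubl-5 (F46F11.4, chromosome I) encodes a small ubiquitin-like protein that works with DVE-1 in the nucleus. Its values were 7.61, 7.67 and 7.55 in wild type without Cd and 6.999, 7.14 and 7.08 with Cd. In MT KO they were 7.69, 7.42 and 7.48 without Cd and 7.37, 7.19 and 7.06 with Cd. The groups did not overlap in either strain, and the wild-type gap was the wider of the pair. With Cd, ubl-5 fell by 0.53 (SE 0.09) in wild type, with an interval from −0.74 to −0.33 and an adjusted p of 0.00416 in limma. Likewise in MT KO ubl-5 fell by 0.32 (SE 0.09), with an interval from −0.52 to −0.12 and an adjusted p of 0.0287 in limma.

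The wild-type fall of ubl-5 passed whichever single array was left out. The MT KO fall did not pass without the first or the third array of MT KO without Cd (limma, adjusted p = 0.0904 and 0.0505), or without the second or the third with Cd (limma, adjusted p = 0.0788 and 0.0932). Adjusted for the end difference, the differences were −0.48 and −0.29, and neither passed (limma, adjusted p = 0.0545 and 0.0821). This gene has 1 probe set, and its _x_at suffix marks probes that may also match other transcripts.

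The gene atfs-1 (ZC376.7, chromosome V) encodes the bZIP transcription factor at the head of the pathway, which is controlled largely by where its protein goes. It read 5.31, 5.81 and 5.92 in wild type without Cd and 6.18, 6.19 and 6.45 with Cd. In MT KO it read 6.24, 6.01 and 6.02 without Cd and 6.35, 6.33 and 6.03 with Cd. Wild type without Cd was the low group: all of its arrays lay below those of the other groups, which overlapped. With Cd, atfs-1 rose by 0.59 (SE 0.16) in wild type, with an interval from 0.23 to 0.95 and an adjusted p of 0.0431 in limma. In MT KO the difference was 0.15, with an interval from −0.22 to 0.51 and an adjusted p of 0.602 in limma.

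The rise of atfs-1 was close to the threshold and was lost in 9 of the 12 fits that left out 1 array. It passed only without the third array of wild type without Cd, the first of MT KO without Cd or the third of MT KO with Cd, and over the 12 fits the difference ran from 0.41 to 0.71, with adjusted p from 0.0280 to 0.143 in limma. Without the first array of wild type without Cd, the lowest of all 12 for this gene, the difference was 0.41 (limma, adjusted p = 0.0880). Adjusted for the end difference, it was 0.30 (limma, adjusted p = 0.442).

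The gene dve-1 (ZK1193.5, chromosome X) encodes a homeodomain protein that binds chaperone promoters during mitochondrial stress in worms. Wild-type arrays read 7.14, 7.47 and 7.07 without Cd and 6.98, 6.80 and 7.08 with Cd, and MT KO arrays 7.25, 7.08 and 6.84 without and 7.09, 7.22 and 7.08 with Cd. The groups overlapped in both strains. The difference with Cd was −0.27 in wild type (interval from −0.56 to 0.02) and 0.07 in MT KO (interval from −0.22 to 0.36), with adjusted p of 0.261 and 0.775 in limma. A second probe set lay between 4.83 and 5.07 on all arrays and passed in no comparison.

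Counted over the 8 genes, 1 rose, 2 fell and 5 did not pass for Cd in wild type, beside 11.9% of all probe sets passing. The median difference was −0.23, against 0.00 over all probe sets, and 7 of the 8 differences were below 0. The groups did not overlap for 3 of the 8, against 25.0% of all probe sets: 1 was higher, against 13.4%, and 2 were lower, against 11.5%. For Cd in MT KO, 2 fell and 6 did not pass, beside 22.5% of all probe sets passing. These shares over all probe sets understate those of probe sets as bright as the 8 genes. In a fit of only the 11296 probe sets with a mean above the median of all values, 3029 passed in wild type and 4335 in MT KO. In the fit of all probe sets, the median difference of the 8 genes with Cd in MT KO was −0.22, against 0.02 over all probe sets. The MT KO groups did not overlap for 3 of 8, all lower and hsp-60 included, against 43.2% in either direction and 15.9% lower. The counts are small: without the third array of wild type with Cd, the number that passed in wild type was 1. In MT KO it was 0 without the first array of MT KO without Cd or without the second or the third with Cd, and 1 without the third without Cd.

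**Figure D3:**
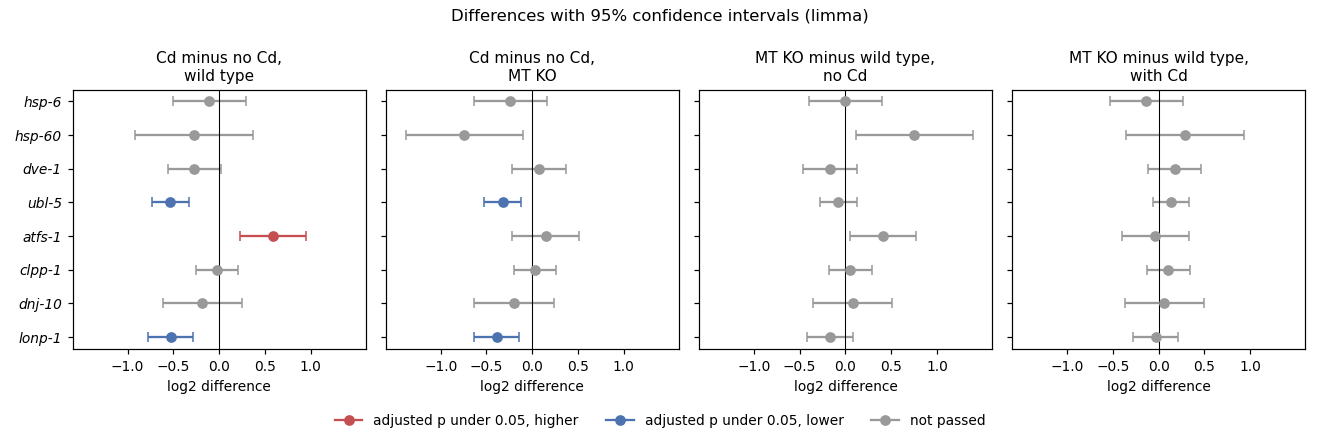
Difference in log2 value of each of the 8 genes in 4 comparisons, as points with 95% confidence intervals from limma, coloured where the adjusted p was under 0.05. With Cd, ubl-5 and lonp-1 pass as lower in both strains and atfs-1 as higher in wild type, and no point passes in the 2 panels that compare strains.

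Loss of the metallothioneins was compared without Cd first. None of the 8 genes passed in limma, beside 1.65% of all probe sets, 0.940% higher and 0.705% lower, and 2 had an unadjusted p under 0.05, hsp-60 and atfs-1. The difference of hsp-60, MT KO minus wild type, was 0.75 (SE 0.29), with an interval from 0.11 to 1.39 and an adjusted p of 0.248 in limma. That of atfs-1 was 0.41 (SE 0.16), with an interval from 0.05 to 0.77 and an adjusted p of 0.266 in limma. The groups did not overlap for atfs-1, the only one of the 8, against 15.9% of all probe sets in either direction and 8.43% higher. Without the first array of wild type without Cd these differences were 0.37 for hsp-60 and 0.23 for atfs-1 (limma, adjusted p = 0.388 and 0.544). The second probe set of hsp-60 differed by 1.55 (SE 0.53) with groups that did not overlap, and did not pass (limma, adjusted p = 0.198). The other 6 differences ran from −0.17, in dve-1 and lonp-1, to 0.08, in dnj-10.

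With Cd in both strains, none of the 8 genes passed in limma, beside 8.56% of all probe sets, 3.62% higher and 4.94% lower, and 0 had an unadjusted p under 0.05. All 8 pairs of groups overlapped on the brightest probe sets, against 25.9% of all probe sets that did not. On their second probe sets hsp-6, hsp-60 and dve-1 had groups that did not overlap and were higher in MT KO, by 0.39, 0.42 and 0.12, and none passed (limma, adjusted p = 0.0871, 0.760 and 0.0937). The largest difference, MT KO minus wild type, was 0.29 in hsp-60, with an interval from −0.36 to 0.93. For ubl-5 it was 0.13, for lonp-1 −0.03 and for atfs-1 −0.04. The median over the 8 was 0.08.

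The Cd responses of the strains were also compared directly. None of the 8 interactions passed in limma, beside 5.45% of all probe sets, 2.09% higher and 3.36% lower, and 0 had an unadjusted p under 0.05. The difference of responses, MT KO minus wild type, ran from −0.47 in hsp-60 to 0.34 in dve-1. For atfs-1 it was −0.44 (SE 0.23), with an interval from −0.96 to 0.07, so its rise in wild type alone is not shown to differ between strains (limma, adjusted p = 0.383). For ubl-5 it was 0.21, with an interval from −0.07 to 0.50, and for lonp-1 0.14, with an interval from −0.21 to 0.49.

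The other genes of the pathway and of mitochondrial upkeep were counted from lists, beside 11.9% of all probe sets passing in wild type and 22.5% in MT KO. Of 11 other regulators, 0 passed in wild type, and in MT KO 1 rose and 1 fell: cbp-1, a histone acetyltransferase, rose by 0.45, and sphk-1, a sphingosine kinase, fell by 0.47 (limma, adjusted p = 0.0340 and 0.0134). In wild type 2 of the 11 had an unadjusted p under 0.05, and 1 passed without the second or the third array of wild type without Cd or the first or the second of MT KO without Cd. The call of cbp-1 was lost without the third array of wild type with Cd, the second or the third of MT KO without Cd, or the first or the second of MT KO with Cd, and that of sphk-1 without the third of MT KO without Cd. The median of the regulators was 0.11 in wild type and 0.04 in MT KO.

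All passing genes among the other chaperones, proteases and prohibitins of mitochondria were lower with Cd. Of 11 measured, 4 fell in wild type and 5 in MT KO, 0 rose, and the medians were −0.32 and −0.26. In wild type the mitochondrial processing peptidase subunits mppa-1 and mppb-1, which cut off import signals, fell by 0.64 and 0.28, and the prohibitin phb-1, an inner membrane scaffold, fell by 0.53 (limma, adjusted p = 0.000169, 0.0100 and 0.000359). The protease gene ppgn-1 fell by 0.37 (limma, adjusted p = 0.00497), a call that was lost in the mean of its probe sets (limma, adjusted p = 0.265). In MT KO the falls were 0.34 in mppa-1, 0.24 in mppb-1, 0.27 in phb-1 and 0.56 in hsp-75, a mitochondrial HSP90 (limma, adjusted p = 0.00274, 0.0128, 0.00708 and 0.00776). Adjusted for the end difference, the fall of mppb-1 in wild type did not pass (limma, adjusted p = 0.0527). The fall of mppb-1 in MT KO was lost without the third array of MT KO without Cd (limma, adjusted p = 0.0507).

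Of 17 genes of mitochondrial protein import, 7 fell in wild type and 6 in MT KO, 0 rose, and the medians were −0.31 and −0.29. In wild type tomm-70, a receptor of the outer membrane, fell by 1.07 (SE 0.21), and the small intermembrane chaperones ddp-1, tin-10 and tin-13 fell by 0.62, 0.48 and 0.66 (limma, adjusted p = 0.00862, 0.000522, 0.00581 and 0.00787). The wild-type calls of tomm-70 and tin-13 were lost when adjusted for the end difference (limma, adjusted p = 0.0923 and 0.0899). The wild-type count was 4 without the second array of wild type without Cd and 4 without the third with Cd. In MT KO the outer membrane subunits tomm-20, tomm-7 and tomm-22 fell by 0.55, 0.48 and 0.53, and ddp-1 fell by 0.41 (limma, adjusted p = 0.00207, 0.00415, 0.00486 and 0.00235).

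Mitochondrial ribosomal proteins, which build the ribosomes of the organelle, fell in both strains more often than they rose. Of 59 measured, 29 fell and 1 rose in wild type, with a median of −0.37 and 54 differences below 0. In MT KO 24 fell and 0 rose, with a median of −0.28 and 49 differences below 0. In wild type mrps-14 fell by 0.64, mrpl-54 by 0.59, mrps-16 by 0.61 and mrps-23 by 0.91 (limma, adjusted p = 2.22e-05, 0.000238, 0.000632 and 0.000632). In MT KO mrps-14 fell by 0.43, mrpl-12 by 0.62, mrpl-54 by 0.45 and mrpl-16 by 0.44 (limma, adjusted p = 0.000109, 0.000368, 0.000529 and 0.00166). Adjusted for the end difference, 20 of the 59 were lower in wild type and 25 in MT KO, and without the first array of wild type without Cd 27 were lower in wild type. Of the 12 fits that left out an array, 1 gene rose in wild type only without the first array of wild type with Cd or the third of MT KO with Cd, and 0 in the others.

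The nuclear-coded subunits of the respiratory chain and ATP synthase carry electrons and make ATP. Of 46 measured, 3 fell and 0 rose in wild type, with a median of −0.01, and 9 fell and 1 rose in MT KO, with a median of −0.08. The shares that passed were 6.52% and 21.7%, beside 11.9% and 22.5% of all probe sets, so neither stood above that of all probe sets. In wild type cox-11, a cytochrome oxidase assembly factor, fell by 0.47, and the complex I genes nuo-6 and nduf-6 fell by 0.35 and 0.34 (limma, adjusted p = 0.0286, 0.0319 and 0.0451). All 3 were lost when adjusted for the end difference (limma, adjusted p = 0.296, 0.121 and 0.204). That wild-type count was 0 without the second array of wild type without Cd or the third with Cd, and 1 without the third without Cd or the second with Cd, and 4 genes rose without the third without Cd. In MT KO nuo-6 fell by 0.53 and cyc-2.2, one of the cytochrome c genes, by 2.26, asb-1, an ATP synthase subunit gene, by 0.78 and ucr-2.3, a complex III gene, by 0.73 (limma, adjusted p = 0.00200, 1.67e-05, 0.00105 and 0.00484). The count in MT KO was 5 without the first or the second array of MT KO without Cd. These falls in MT KO stood beside that of 30 of 31 sperm markers, and the part of the sperm markers was not tested.

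**Figure D4:**
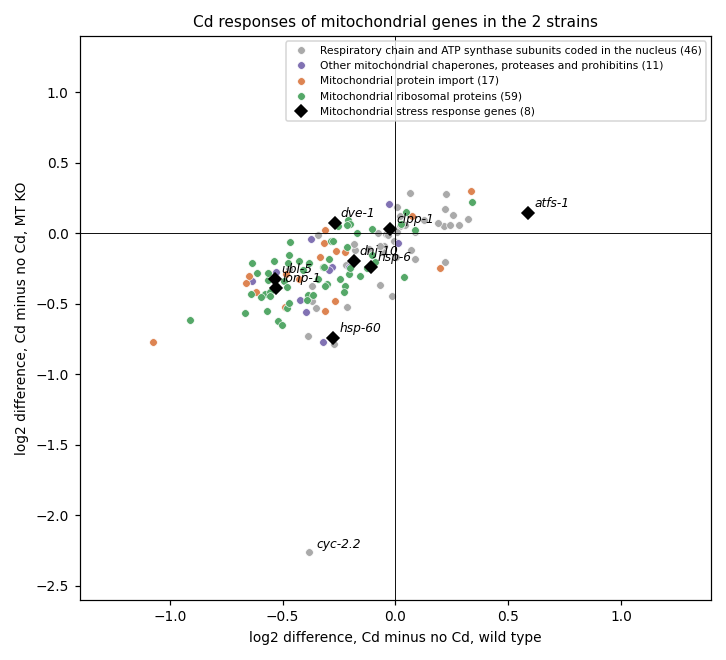
Log2 difference with Cd in wild type (horizontal) against MT KO (vertical) for the 8 genes, as black diamonds, and for 4 lists of mitochondrial genes, as coloured points. The ribosomal protein, import and chaperone genes lie mostly in the lower left, where ubl-5 and lonp-1 lie at −0.53 and −0.32 and at −0.53 and −0.39, atfs-1 lies to the right at 0.59, and cyc-2.2 lies far down at −2.26.

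Genes of fission, fusion and mitophagy shape mitochondria and clear damaged ones. Of 11 measured, 2 rose and 0 fell in wild type, and 2 rose and 2 fell in MT KO, with medians of 0.03 and 0.16. Among all probe sets, 11.9% passed in wild type and 22.5% in MT KO. The mitophagy receptor dct-1 rose by 0.84 in wild type and by 0.46 in MT KO, and the autophagy adaptor sqst-1 by 0.43 and 0.82 (limma, adjusted p = 0.00224, 0.0271, 0.00419 and 4.56e-05). The fission factors mff-2 and fis-1 fell by 0.61 and 0.74 in MT KO (limma, adjusted p = 0.00765 and 0.00953). The group means of fis-1, 3.59 ± 0.21 and 2.85 ± 0.12 (SD, n = 3) in MT KO without and with Cd and 3.17 and 3.01 in wild type, all lay below the median of all values, 4.03, so its signal may be background. The rise of dct-1 in MT KO was lost without the second or the third array of MT KO without Cd or the first or the third with Cd. In the fit adjusted for the end difference, dct-1 in MT KO and sqst-1 in wild type did not pass (limma, adjusted p = 0.0782 and 0.0621).

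Chaperones of other compartments were set beside the mitochondrial ones. Of 16 genes of endoplasmic reticulum chaperones and sensors, 2 fell in wild type and 8 fell and 1 rose in MT KO, with medians of −0.11 and −0.34. In MT KO the disulfide isomerases pdi-1 and pdi-2 fell by 0.37 and 0.75, the calnexin cnx-1 by 0.35 and the HSP70 hsp-4 by 0.60. In wild type pdi-1 fell by 0.37 too, and pdi-6 by 0.36 (limma, adjusted p = 0.00176 and 0.0239). Both wild-type calls were lost in the mean of the gene's probe sets (limma, adjusted p = 0.382 and 0.0567). That of pdi-6 was also lost when adjusted for the end difference (limma, adjusted p = 0.115). Of 15 cytosolic heat shock proteins, 1 rose and 1 fell in each strain: the small heat shock protein sip-1 rose by 2.56 and 2.19, and hsp-12.3 fell by 1.11 and 2.47. Both groups with Cd read below the median of all values in hsp-12.3, at 3.69 ± 0.11 in wild type and 3.84 ± 0.08 in MT KO (SD, n = 3), from 4.80 ± 0.49 and 6.32 ± 0.13 without Cd. The wild-type fall of hsp-12.3 did not pass when adjusted for the end difference (limma, adjusted p = 0.0637). The 8 falls among the endoplasmic reticulum genes became 5 without the first array of MT KO with Cd, and the 2 in wild type became 1 without the second or the third array of either wild-type group. The cytosolic counts in wild type were 2 rises without the third array without Cd and 2 falls without the first array with Cd.

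**Figure D5:**
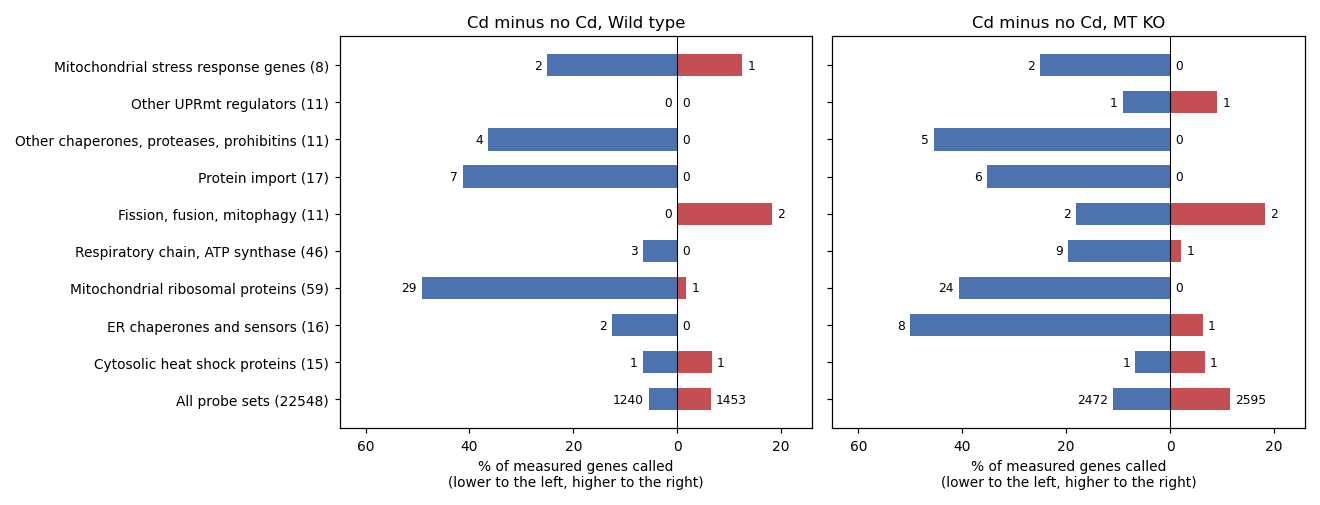
Share of the measured genes of each list that passed (limma, adjusted p under 0.05) for Cd minus no Cd in each strain, with lower to the left, higher to the right and counts beside the bars, and all 22548 probe sets in the last row. The mitochondrial ribosomal proteins have 29 lower of 59 in wild type and 24 in MT KO, and the 8 stress response genes 2 lower in each strain.

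Between the strains, 4 genes of these lists passed without Cd and 10 with Cd, beside 1.65% and 8.56% of all probe sets. The lists, in the order given above, held 11, 11, 17, 59, 46, 11, 16 and 15 measured genes. The calls are listed singly and are not read as a trait of the lists. Without Cd, hsp-12.3 was higher in MT KO by 1.52 (limma, adjusted p = 0.00792), a call that was lost with only the 2 groups compared (limma, adjusted p = 0.114) and held in the fits that left out an array. The differences of ppgn-1, tomm-7 and dct-1, MT KO minus wild type, were −0.35, 0.49 and 0.73 (limma, adjusted p = 0.0331, 0.0337 and 0.0245), and their calls were lost in 7, 9 and 4 of the 12 fits that left out an array. The ppgn-1 difference was −0.04 in the mean of its probe sets, and those of tomm-7 and dct-1 did not pass when adjusted for the end difference (limma, adjusted p = 0.0673 and 0.0889). Of the 59 mitochondrial ribosomal protein genes, 0 passed in limma without Cd, 6 having an unadjusted p under 0.05.

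With Cd in both strains, the calls that held whichever array was left out were those of cyc-2.2, lower in MT KO by a difference of −1.50, and of mrpl-15, higher by 0.41 (limma, adjusted p = 0.000914 and 0.00621). The other 8 calls were lost in 3 to 10 of the 12 fits that left out an array. They were asb-1, nduf-2.2, pdi-1 and pdi-2, with differences of −0.57, −0.51, −0.21 and −0.46 (limma, adjusted p = 0.0165, 0.0420, 0.0383 and 0.0465), and mrpl-17, mrpl-23, phb-1 and immp-2, with differences of 0.53, 0.28, 0.24 and 0.40 (limma, adjusted p = 0.0254, 0.0216, 0.0317 and 0.0392).

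For each of the 8 genes, the genes most like it in pattern were found by Pearson's r over the 12 arrays, which share their groups and libraries, so these values are descriptive. The closest to ubl-5 was mrps-21, a mitochondrial ribosomal protein gene, at r = 0.983, followed by C52B11.5 at 0.963 and pfut-1 at 0.961. The closest to lonp-1 were rpc-2 at 0.971, toe-1 at 0.961 and again C52B11.5 at 0.954. For hsp-60 they were the cytosolic chaperonin subunit cct-7 at 0.958, tatn-1 at 0.951 and C27C7.1 at 0.940. For atfs-1 they were dcar-1 at 0.958, larp-5 at 0.949 and anc-1 at 0.946. The closest matches of hsp-6, dve-1, clpp-1 and dnj-10 were psme-4 at 0.893, snf-3 at 0.867, F21D5.6 at 0.868 and metl-13 at 0.947.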

How the data were processed

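The deposited values are log2 expression values, 1 per probe set and array; the authors' processing tool was GCRMA, per the submitters' processing notes, with its version not given in the sources used here. GCRMA corrects background by probe sequence, equalises array distributions and summarises the probes of a set, so levels are relative to the other arrays. Per the labels' protocols, 200 ng of total RNA was amplified and labelled with biotin. Values were used as deposited. Of 22625 features, 77 control probe sets were set aside. Symbols came from the platform annotation and, for older names and chromosomes, from the RefSeq table of assembly WBcel235; coordinates are left out because no build is named in the files. Group means of the 12 arrays were fitted with limma 3.58.1 in R 4.3.3, with 8 residual and 1.38 prior degrees of freedom; the fitting code was tested on simulated data. No depth exists for arrays, and their number limits the precision.

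The 8 genes were named in all comparisons, from other lists up to 4 passing genes with the smallest adjusted p per comparison, and for likeness the 3 highest correlations among probe sets with 1 symbol and a mean above the median of all values. Single genes named beside changes of calls follow the same rule, and every list gene that passed between the strains falls under it. The members and lists were chosen with earlier results of these data known. No probe set with 1 symbol was found for 15 list genes. Alternatives were an intensity trend, quantile normalization, a filter on low values, array weights, a replicate block, only the groups compared, the end difference of the control probe sets as a covariate, no variance moderation, the mean of a gene's probe sets, and leaving out each array. Same-numbered arrays deviated together at r from −0.20 to 0.24 over 18 pairs of arrays, and different-numbered ones from −0.33 to 0.25 over 36. The numbers were not treated as pairs in the main fit, and these ranges do not exclude a pairing.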

Additional observations from a re-analysis of the deposited data

Results flagged for a closer look

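The Cd responses of 3 genes from the lists differed between the strains by the interaction test, beside 5.45% of all probe sets passing. They came from lists of 11 to 59 measured genes each, so the count is not read as a trait of the lists. For cyc-2.2, one of the cytochrome c genes, the response of MT KO minus that of wild type was −1.88 (SE 0.23; limma, adjusted p = 0.00256), from group means of 7.92 ± 0.21 and 7.54 ± 0.23 (SD, n = 3) in wild type without and with Cd and of 8.31 ± 0.24 and 6.04 ± 0.19 in MT KO. The sperm markers moved the same way, 30 of 31 passing as lower with Cd in MT KO and 1 of 31 in wild type. In wild type 30 of the 31 differences were nonetheless below 0, and 12 had an unadjusted p under 0.05 in limma. The median difference of the markers was −0.39 in wild type and −2.85 in MT KO. Their part in the cyc-2.2 result was not tested. For the small heat shock protein gene hsp-12.3 the difference of responses was −1.36 (SE 0.28; limma, adjusted p = 0.0225), with responses of −1.11 and −2.47 from group means of 4.80 ± 0.49 and 3.69 ± 0.11 (SD, n = 3) in wild type without and with Cd and of 6.32 ± 0.13 and 3.84 ± 0.08 in MT KO. Both means with Cd lay below the median of all values, 4.03, and the strains differed by 1.52 without Cd. For hsp-4, an endoplasmic reticulum HSP70 gene, it was −0.61 (SE 0.15; limma, adjusted p = 0.0478), with responses of 0.01 and −0.60 from group means of 9.96 ± 0.13 and 9.96 ± 0.18 in wild type and of 10.44 ± 0.16 and 9.84 ± 0.02 in MT KO. The hsp-12.3 and hsp-4 differences lost their calls without variance moderation, and that of hsp-4 also with quantile normalization, with the replicate block and in 9 of the 12 fits that left out an array, passing only without the first array of wild type without Cd, the second with Cd or the second of MT KO without Cd. The hsp-12.3 difference did not pass without the second or the third array of wild type with Cd or the second array of either MT KO group (limma, adjusted p from 0.0529 to 0.0623).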

How the results depend on the processing

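Over the 8 genes and 5 comparisons there were 40 differences and 832 alternative fits of them. Leaving out 1 array kept direction and side of the threshold in 430 fits, and the other alternatives in 316; 17 and 14 fits lost a call, 3 and 5 gained one, and 30 and 17 turned the sign of a difference that did not pass. The cause was not tested for any of these. The number of the 8 genes that passed for Cd in wild type was 1 with the end difference as a covariate and between 1 and 3 when 1 array was left out. In MT KO it was 1 with only the groups compared, with the covariate, without variance moderation and with the mean of probe sets, and between 0 and 3 when 1 array was left out. The wild-type rise of atfs-1 was lost with quantile normalization, with only the groups compared and without moderation (limma or, for the last, a plain linear model; adjusted p = 0.0710, 0.130 and 0.0795). In MT KO, hsp-60 passed as lower with the filter, with array weights and with only the groups compared (limma, adjusted p = 0.0321, 0.0223 and 0.0135), and with only the groups compared ubl-5 and lonp-1 did not pass (limma, adjusted p = 0.114 and 0.0754).

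Every reversal was of a difference that did not pass. With the mean of probe sets, hsp-6 turned to 0.039 and 0.13 for MT KO minus wild type without and with Cd and to 0.088 for the difference of responses, clpp-1 to 0.078, −0.0057 and −0.084 for Cd in wild type, Cd in MT KO and the difference of responses, and lonp-1 to 0.030 for the strains with Cd. With the covariate, the difference of responses of hsp-6 turned to 0.011 and of clpp-1 to −0.023, Cd in wild type of clpp-1 to 0.14, Cd in MT KO of atfs-1 to −0.012, and the strains with Cd of lonp-1 to 0.00078. With array weights, the difference of responses turned to 0.013 in hsp-6 and 0.091 in dnj-10, Cd in wild type to 0.061 in clpp-1, and the strains with Cd to 0.033 in atfs-1; with quantile normalization the difference of responses of dnj-10 turned to 0.0043.

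Leaving out 1 array, the ranges that crossed 0 were, for Cd in wild type, −0.66 to 0.012 in hsp-60 and −0.083 to 0.055 in clpp-1, and for Cd in MT KO, −0.036 to 0.17 in dve-1 and −0.057 to 0.14 in clpp-1. For the strains without Cd they were −0.17 to 0.086 in hsp-6, −0.055 to 0.14 in clpp-1 and −0.12 to 0.27 in dnj-10, and with Cd −0.25 to 0.043 in hsp-6, −0.093 to 0.069 in atfs-1, −0.032 to 0.14 in dnj-10 and −0.090 to 0.019 in lonp-1. For the difference of responses they were −0.25 to 0.044 in hsp-6, −0.034 to 0.16 in clpp-1 and −0.21 to 0.18 in dnj-10.

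With the replicate block, 2 of the 8 genes passed in each strain, atfs-1 being lost (limma, adjusted p = 0.0776), and 0 in the comparisons of strains. Over all probe sets the block gave 2716 calls against 2693 for Cd in wild type. It gave 312 against 371 for the strains without Cd and 1127 against 1229 for the difference of responses. The same-numbered arrays deviated together at a median r of 0.055, with 5 of 18 pairs over 0.1. For different-numbered arrays the median was −0.00021, with 3 of 36 pairs over 0.1. Over all probe sets, Cd in wild type gave 848 higher and 922 lower calls with the covariate and 1264 and 1302 with quantile normalization, against 1453 and 1240. The strains without Cd gave 593 calls with array weights, 175 without moderation, 23 with only the groups compared and 168 and 170 without the second array of either group without Cd, against 371. With Cd they gave 1155 without the first wild-type array, against 1930. The difference of responses gave 1869 calls with array weights and 801 without moderation, against 1229.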
